A study of Mus musculus with 22 samples.

Results

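The mRNAs described here encode proteins of the large subunit of the mouse ribosome. They are the genes whose symbol is Rpl followed by a number, with or without the letter a, together with Rplp0, Rplp1 and Rplp2, which makes 46 of the 29848 genes listed. The choice used names only and no measured value. RNA came from the CA1 field of the hippocampus of C57BL/6 mice that were double transgenic, Camk2a-tTA and tetO-EGFP-L10a, in every group. In them a Camk2a promoter, active in excitatory forebrain neurons, drives a GFP-tagged copy of the large-subunit protein L10a, and an antibody to GFP (HtzGFP-19C8) pulls the tagged ribosomes down. Dendrites and cell bodies (soma) were microdissected from home cage or fear conditioned mice. The age of the mice and the time after training are not in the labels used here. The 11 libraries were 8 immunoprecipitates, 2 for each behaviour in each location, and 3 supernatants, which hold the RNA that was not pulled down. The supernatants are those of replicate 2: home cage and fear conditioned for dendrite, and fear conditioned alone for soma. Each library had a paired-end run, used throughout, and a single-end run, a technical repeat that never entered n. Nothing in the labels says that libraries came from separate mice, so the spread between them may be technical.

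Ribosomal protein mRNAs are among the most abundant mRNAs of a cell, and their products are made in near equal numbers to be assembled with ribosomal RNA in the nucleolus. Most of them carry a 5′ terminal oligopyrimidine tract, a C followed by an unbroken run of C and T at the start of the mRNA, through which the mTOR pathway and the protein LARP1 control their translation together. In neurons they are also known as mRNAs found in dendrites and axons, far from the nucleolus. Rpl10a is a special member here, since its protein is the one that carries the tag. The tables have no row for GFP, so reads of the tagged copy and of the resident gene cannot be told apart in Rpl10a.

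RefSeq entries of mouse build GRCm38.p6 gave the annotated start of 34 of the 46 genes, at 40 start sites. Windows of 30 bases, 15 before and 15 from the annotated start, are printed 5′ to 3′ on the gene's strand, with the longest unbroken run of C and T in capitals. The first group holds Rpl31, Rpl35a and Rpl11, the 3 genes with an unadjusted p under 0.05 between dendrite and soma below, and Rpl27a, which had the largest negative difference with fear conditioning in soma. For Rpl35a, with 3 annotated starts, the start with the longest run is shown. The positions are chr1:39367836-39367865, plus strand, for Rpl31, chr16:33056467-33056496, plus strand, for Rpl35a, chr4:136053379-136053408, minus strand, for Rpl11 and chr7:109519180-109519209, plus strand, for Rpl27a.
Rpl31: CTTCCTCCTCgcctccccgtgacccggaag
Rpl35a: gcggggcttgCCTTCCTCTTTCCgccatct
Rpl11: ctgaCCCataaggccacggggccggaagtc
Rpl27a: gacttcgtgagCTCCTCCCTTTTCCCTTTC

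The second group holds Rplp2, of the ribosomal stalk, Rpl4, of the subunit core, and Rpl41, the gene with the highest mean level. They lie at chr7:141447636-141447665, plus strand, for Rplp2, chr9:64173372-64173401, plus strand, for Rpl4 and chr10:128549154-128549183, minus strand, for Rpl41.
Rplp2: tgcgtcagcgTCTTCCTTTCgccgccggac
Rpl4: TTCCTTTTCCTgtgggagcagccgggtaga
Rpl41: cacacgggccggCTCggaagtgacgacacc
Of the 34 genes, 17 (50%) had a run of at least 8 C or T on the sense strand in this window, against 13.9% of all 27025 genes with an entry. The longest run had 21 bases, in Rpl7a. Rpl11 and Rpl41 are examples with a short run at the annotated start: each had a longest run of 3 bases in these windows. A run in the window describes the letters there and is no measurement of where these transcripts start.

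The values are FPKM, fragments scaled to transcript length and to library size, so levels are per length. The part measured runs from the transcript's start through the coding region into the first 201 bases of the 3′ UTR. In the authors' annotation, in mouse build mm9, the 46 genes lie on 17 chromosomes, and their measured parts are 369 to 2602 bases long, with a median of 691.5 against 1274 for all other genes. These short genes also have many copies: 36 of the 46 have 182 named pseudogenes in all in the GENCODE M21 annotation of GRCm38, up to 24 for Rpl31. Only pseudogenes named after their gene were counted, so a gene without one may still have copies under other names. Exons of another symbol overlap 8 of them. How the authors counted reads shared with a pseudogene or an overlapping gene is unknown here, so levels of such genes are uncertain.

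Depth was 5.61 to 35.4 M fragments in paired-end runs and 0.514 to 10.7 M reads in single-end runs, as estimated from the spacing of low FPKM values. Paired-end immunoprecipitates listed 3220 to 12205 genes above 0. Rpsa, a small-subunit protein gene, held 74.0% of all FPKM in the paired-end run of home cage soma immunoprecipitate 2, against 1.57% in its single-end run. Every other share is low in that paired-end run. Each library was therefore divided by a median ratio before testing, with factors from 0.267 for that library to 2.31 for fear conditioned dendrite 1 in the comparison of immunoprecipitates. These values are called scaled FPKM below. The supernatants were scaled together with the immunoprecipitates in a separate step, so values there differ slightly. CA1 pyramidal neuron markers were present: the summed scaled FPKM of 8 of them was 81.9 to 534 in dendrite and 28.2 to 129 in soma immunoprecipitates.

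The large-subunit mRNAs made up a visible part of every library. As deposited, their summed FPKM was 4741, 1308, 1524 and 1754 in the dendrite immunoprecipitates, in the order home cage 1, home cage 2, fear conditioned 1 and fear conditioned 2, which is kept for every set of 4 values below. It was 460, 590, 593 and 503 in the soma immunoprecipitates. All dendrite sums lay above all soma sums. In the supernatants the sum was 415 and 739 in dendrite and 155 in soma, in the same order of locations. The single-end runs also kept the dendrite sums (2373 to 3422) above the soma sums (940 to 1247). Bulk values cannot tell fewer cells of a type from less RNA per cell.

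This separation was lost after scaling. The summed scaled FPKM, over all 11 libraries, was 4959, 984, 687 and 946 in dendrite and 906, 2794, 406 and 239 in soma immunoprecipitates. The overlap comes with home cage soma 1 and 2, which have the smallest scaling factors and so the largest increase. As a share of all FPKM the genes took 13.0%, 3.82%, 3.00% and 3.48% in dendrite and 3.00%, 2.04%, 1.88% and 1.37% in soma. The lowest dendrite and the highest soma share meet at 3.00%. Without Rpsa in the total, home cage soma 2 had a share of 7.82%. Home cage dendrite 1, with the highest share, was also the shallowest paired-end library, at 5.61 M fragments, and in its single-end run the share was 1.47%.

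**Figure D1:**
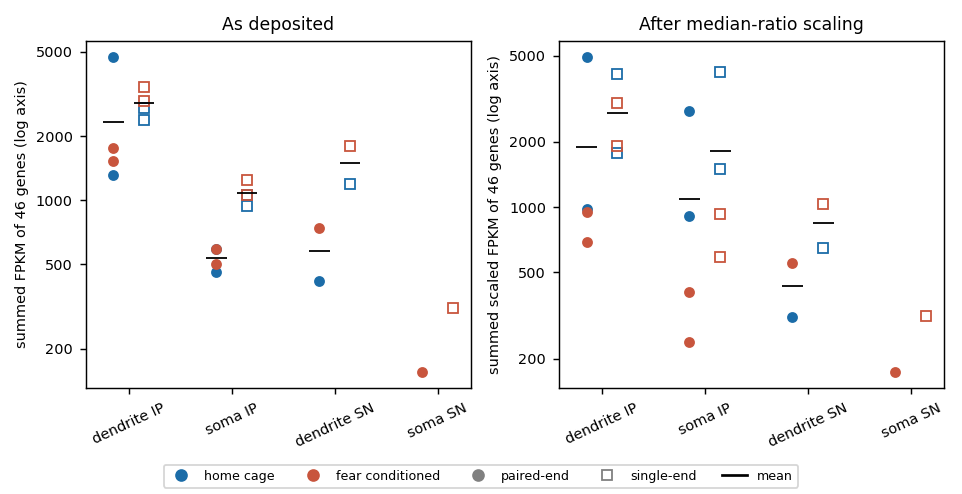
Summed FPKM of the 46 large-subunit genes in each library (log axes), as deposited on the left and after median-ratio scaling over 11 libraries on the right; filled circles are paired-end and open squares single-end runs, colours are behaviours and bars are means. As deposited the dendrite immunoprecipitates (1308 to 4741) sit above the soma immunoprecipitates (460 to 593), and after scaling they overlap.

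A few genes dominated the family. Rpl41, which encodes a very short basic protein from a coding part of 75 bases, was the highest of the 46 in 9 of the 11 paired-end libraries and had the highest mean over the immunoprecipitates, 401 scaled FPKM. It was 1286, 243, 158 and 124 in dendrite and 159, 1043, 147 and 47.8 in soma immunoprecipitates. The values overlapped between the locations, with the highest value of each in a home cage library. The next in mean level were Rpl10 (185), Rpl32 (157), Rpl4 (128), Rpl31 (32.4), Rpl22 (30.3), Rpl27 (29.7) and Rpl19 (24.7), and the median of the 46 was 9.71. The 3 highest genes of a library together held 37.5 to 75.9% of the family's FPKM in dendrite and 39.0 to 63.1% in soma immunoprecipitates.

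The means of the highest genes rest on few libraries. Rpl10, a core protein that joins the subunit late in its assembly, was 1057, 17.5, 49.1 and 49.4 in dendrite and 254, 22.9, 15.9 and 14.8 in soma immunoprecipitates. Its median over the 8 was 36.0, and home cage replicate 1 was the highest in both locations. Rpl32 was 974, 11.5, 9.57 and 18.4 in dendrite, and 0, 238, 6.37 and 0.389 in soma. Here a single library in each location carried the mean, and home cage dendrite 1 had 44.6 in its single-end run. Rpl4, which lines the tunnel through which the new protein leaves, was 474, 156, 49.5 and 159 in dendrite against 4.89, 99.6, 48.2 and 32.1 in soma. The dendrite values were the higher ones except for an overlap of fear conditioned dendrite 1 with home cage soma 2.

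At the low end, Rpl36a (mean 1.12), Rpl24 (1.06), Rpl9 (0.661) and Rpl34 (0.205) were near the floor of detection. Rpl9 and Rpl34 had means under the 1 needed for testing, so 44 of the 46 were tested between immunoprecipitates. In all 8 immunoprecipitates 33 genes were above 0, and 13 were listed at 0 at least once. Rpl34, which Rpl34-ps1 overlaps, had FPKM under 0.01 in at least 4 of the 8. Over the 46 genes Spearman's rho of median level with the number of named pseudogenes was 0.00187, and of mean level with length -0.0593. These are descriptions across genes that share libraries.

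**Figure D2:**
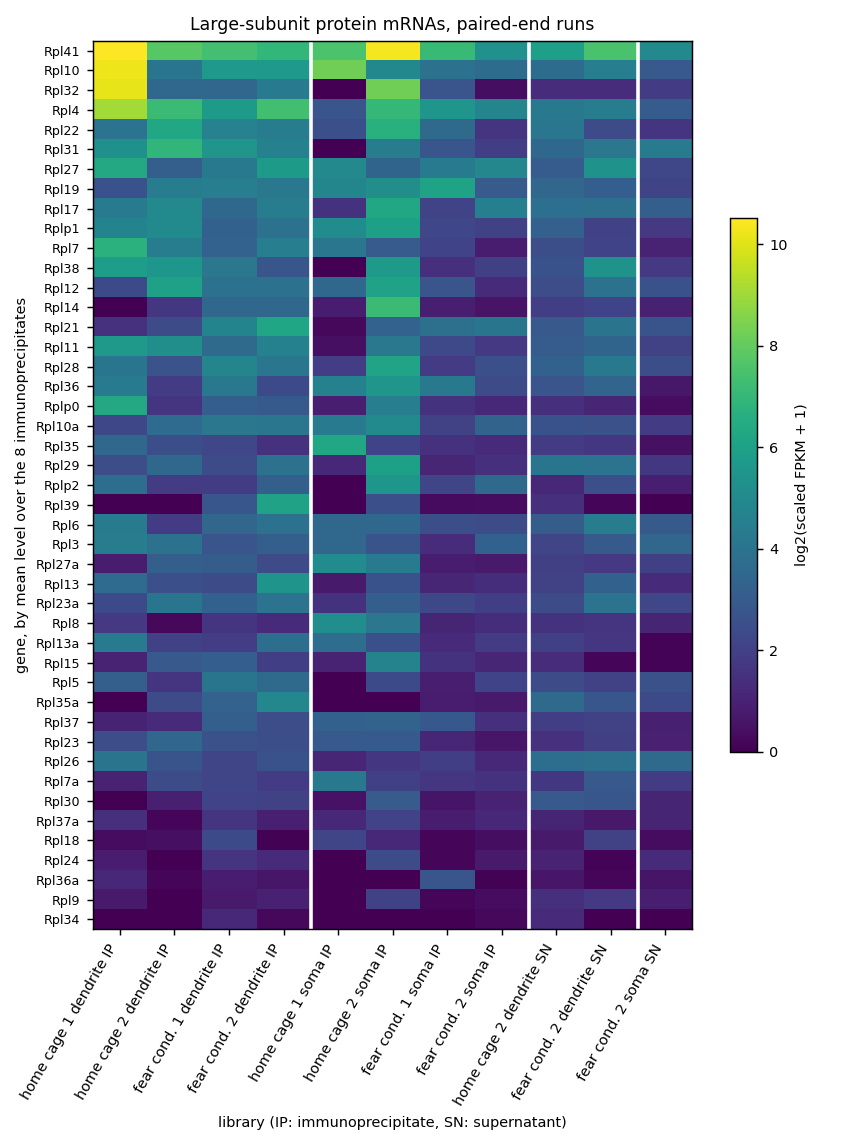
log2(scaled FPKM + 1) of 45 of the genes (rows, by mean level over the immunoprecipitates) in the 11 paired-end libraries (columns, grouped by location and fraction). Rpl41 is bright in every column, while Rpl10 and Rpl32 are brightest in home cage dendrite 1, and Rpl34 is dark in nearly every column.

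The family's internal profile was noisy. On log2(FPKM + 1) values of the 46 genes, replicate immunoprecipitates of a group correlated with a Pearson r of 0.235 to 0.787 (4 pairs), and r was 0.14 to 0.744 between other immunoprecipitates (24 pairs). It was 0.762 to 0.813 between the paired-end runs of the 3 supernatants and 0.379 to 0.65 between the paired-end and single-end runs of each. The paired-end and single-end runs of the same immunoprecipitate, which share 1 library, had an r of 0.454 to 0.767.

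The first comparison asked whether ribosome-bound large-subunit mRNAs differ in level between dendrites and cell bodies. In the fit of the 8 immunoprecipitates, 30 of the 44 tested genes had a higher mean log2 level in dendrites, with a median log2 difference of 0.67, while 42.6% of all 2928 genes tested were higher there, with a median of -0.30. None of the 44 passed the threshold of 0.05 (limma, Benjamini-Hochberg adjusted p 0.650 to 0.992), and neither did any other gene (0%). At an unadjusted p under 0.05, 3 of the 44 were higher in dendrite against 1.88% of all genes, and 0 were lower against 2.87%. All differences are on the scale of log2(scaled FPKM + 1), which understates those of low genes.

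The 3 with an unadjusted p under 0.05 were Rpl31, Rpl11 and Rpl35a. Rpl32 (2.50, SE 1.79), Rpl4 (2.32), Rpl38 (2.31) and Rpl7 (2.25) had differences between those of Rpl11 and Rpl35a without reaching it. Rpl31 (chromosome 1, 39424696 to 39428376 in mm9, plus strand, 5 exons) encodes a protein at the rim of the exit tunnel. It was 33.6, 133, 41.6 and 24.1 in dendrite and 0, 16.2, 6.66 and 3.52 in soma immunoprecipitates. Every dendrite library was above every soma library, as for 1.71% of all genes tested. The log2 difference was 3.26 (SE 1.22, limma adjusted p = 0.650). In the single-end runs the groups overlapped, with 10.5 to 35.9 in dendrite and 0 to 23.5 in soma. Exons of Gm6635 and Tbc1d8 overlap Rpl31 and it has 24 named pseudogenes, so the origin of its reads is uncertain.

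Rpl11 and Rpl5 form, with the 5S ribosomal RNA, the particle that joins the large subunit during assembly and that can bind the p53 regulator Mdm2. Rpl11 (chromosome 4, 135605863 to 135609286, minus strand, 6 exons) has no named pseudogene in GENCODE M21. It was 43.9, 38.7, 10.98 and 24.0 in dendrite and 0.294, 13.8, 4.39 and 2.91 in soma. Only fear conditioned dendrite 1 and home cage soma 2 overlapped. The log2 difference was 2.59 (SE 1.14, limma adjusted p = 0.650). Its partner Rpl5 (chromosome 5, 108329547 to 108337213, plus strand) was 7.04, 2.16, 15.2 and 11.7 in dendrite and 0, 3.23, 0.913 and 4.13 in soma. The locations overlapped through home cage dendrite 2, and the log2 difference was 1.74 (SE 0.99, limma adjusted p = 0.650). Both genes of this particle thus had their higher mean in dendrites, without passing the test.

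Rpl35a (chromosome 16, 33056600 to 33060274, plus strand), a gene mutated in Diamond-Blackfan anaemia, was low in soma. It was 0, 4.7998, 8.60 and 28.4 in dendrite and 0, 0, 0.900 and 0.837 in soma immunoprecipitates. Home cage dendrite 1 was also listed at 0, so the groups met there. The log2 difference was 2.22 (SE 0.91, limma adjusted p = 0.650). Rpl26, a protein near the exit tunnel that is modified by the ubiquitin-like UFM1, was the other gene whose locations did not overlap, at 13.7, 6.13, 3.46 and 5.37 against 1.02, 1.73, 3.17 and 1.52. Its log2 difference was 1.42 (SE 0.92, limma adjusted p = 0.650), and in the single-end runs its groups overlapped, with 12.9 to 65.9 in dendrite and 15.5 to 117 in soma.

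On the other side, 14 of the 44 genes had a lower mean in dendrites and none of them reached an unadjusted p under 0.05. The 3 largest such differences are given as values that did not pass. Rpl8, a core protein next to the peptidyl transferase centre, was 2.09, 0.1996, 1.97 and 1.36 in dendrite and 29.3, 13.4, 1.26 and 1.94 in soma, a log2 difference of -1.70 (SE 0.91, limma adjusted p = 0.650). The 2 home cage soma libraries carried this difference, and the fear conditioned soma values lay within the dendrite range. Rpl36 had a log2 difference of -1.01 (SE 1.13) and Rpl19, which forms a bridge to the small subunit, -0.81 (SE 1.15). Both turned positive in the single-end table, at 1.37 and 0.99.

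The stalk proteins, which recruit the elongation factors, did not move as a unit. Rplp0 (chromosome 5, 116009476 to 116013651, plus strand), the base of the stalk, was 69.9, 2.18, 7.602 and 6.96 in dendrite and 0.737, 17.2, 2.09 and 1.51 in soma. Rplp1 was 22.6, 33.8, 8.31 and 14.7 in dendrite and 28.6, 49.0, 4.15 and 3.97 in soma. Rplp2 was 11.3, 2.94, 2.52 and 8.18 in dendrite and 0, 36.1, 4.00 and 13.8 in soma. All 3 overlapped between the locations, with log2 differences of 1.496 (SE 1.24), 0.42 (SE 1.05) and -0.20 (SE 1.27).

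Among the other core and surface genes, Rpl4 had a log2 difference of 2.32 (SE 1.15) and Rpl10 of 1.23 (SE 1.36). Rpl3, a core protein near the peptidyl transferase centre, was 18.5, 15.5, 5.66 and 8.27 in dendrite and 8.66, 4.48, 1.67 and 10.5 in soma, a log2 difference of 0.90 (SE 1.05). Rpl22, an RNA-binding protein of the surface, had 1.26 (SE 1.26), and Rpl38, known for its role in the translation of Hox mRNAs, 2.31 (SE 1.28). Rpl38 was 51.0, 49.0, 16.1 and 6.13 in dendrite and 0, 38.8, 1.86 and 3.59 in soma, so home cage soma 2 alone lay inside the dendrite range. Rpl41 had 0.60 (SE 0.93). Each of these 6 was positive, and none passed (limma adjusted p 0.650 to 0.748).

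Rpl10a (chromosome 17, 28465416 to 28467978 in mm9, plus strand, 5 exons) encodes a protein beside the tRNA exit site, at another stalk than that of Rplp0, Rplp1 and Rplp2. It was 3.43, 12.9, 16.1 and 16.6 in dendrite and 16.8, 24.6, 3.48 and 11.1 in soma immunoprecipitates. The locations overlapped throughout. Its log2 difference was -0.11 (SE 1.07, limma adjusted p = 0.958), and it was 0.83 in values as deposited. It ranked 20th of the 46 genes by mean level.

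**Figure D3:**
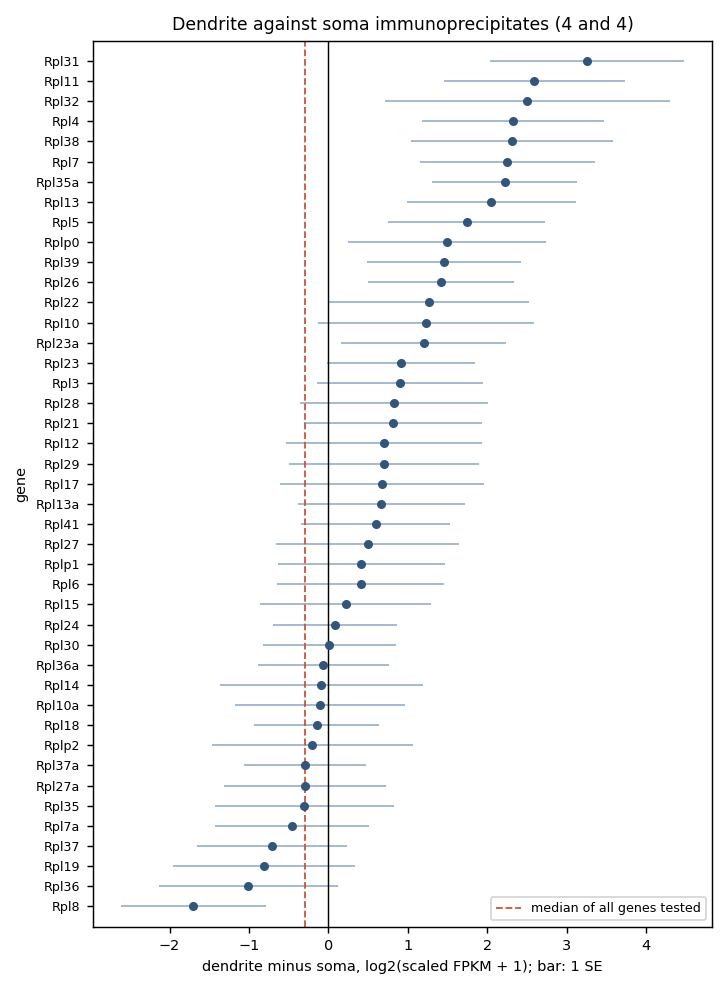
Dendrite minus soma difference of log2(scaled FPKM + 1) for 43 of the genes tested, with bars of 1 SE from limma over 4 and 4 immunoprecipitates; the dashed line is the median of all genes tested (-0.30). Rpl31 (3.26) and Rpl11 (2.59) lie at the top and Rpl8 (-1.70) at the bottom, and 30 of the 43 points lie right of 0.

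The size of the family's difference depended on scaling and on home cage soma libraries. As deposited, the median was 1.53 against 0.12 for all genes. Dendrite and soma values of 9 genes then did not overlap (Rpl4, Rpl7, Rpl11, Rpl13, Rpl23, Rpl26, Rpl31, Rpl38 and Rplp1), against 2.8% of all genes. In the single-end table the median was 0.94 against -0.50 for all genes, and 2 genes did not overlap, Rpl4 and Rpl12, against 0.888% of all genes. The 2 of the paired-end table were Rpl26 and Rpl31. No gene of the family had every soma library above every dendrite library, against 1.74% of all genes, 0.546% as deposited and 3.07% in the single-end table. Leaving out home cage soma 1 gave a median of 0.24, and leaving out home cage soma 2 gave 1.25. Without home cage dendrite 1 and home cage soma 2 together, an alternative chosen after the values were seen, it was 1.45, against -0.17 for all genes.

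Markers of astrocytes moved the same way. All 10 astrocyte markers had their higher mean in dendrite immunoprecipitates, and their summed scaled FPKM was 145 to 238 there against 3.09 to 57.9 in soma immunoprecipitates, 230 to 299 in dendrite supernatants and 21.8 in the soma supernatant. Of 7 oligodendrocyte markers 5 had the higher mean in dendrite (sums of 5.77 to 60.6 against 0.955 to 64.2, with Mog listed at 0 in all soma immunoprecipitates). For microglia it was 7 of 8 (1.15 to 11.9 against 0.995 to 10.4, with C1qb, C1qc and Cx3cr1 at 0 in soma). Interneuron markers reached 15.7 in dendrite and 5.73 in soma, and vascular markers 4.86 and 0.525. Of 8 pyramidal neuron markers 4 had the higher mean in dendrite. Astrocytes and other cells express ribosomal protein genes too, and the part of these cells in the difference was not tested.

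Other parts of the translation machinery are given beside the family, without a test of the lists. Of 30 tested small-subunit protein genes, 20 were higher in dendrite, with a median log2 difference of 0.66. Their Rpsa was lower (-1.56, SE 0.98) and Rps6, the classic target of S6 kinase, higher (1.40, SE 1.02). All 7 translation elongation factors were higher, with a median of 1.06, among them Eef1a1 (1.28, SE 0.82) and Eef2 (1.16, SE 0.94), which deliver tRNA and move the ribosome along. Of 7 tested assembly factors 1 was higher, with a median of -0.91, and of 13 mitochondrial large-subunit proteins 3 were higher, with a median of -0.94. None of these genes passed (limma adjusted p from 0.650). Eif6, an anti-association factor of the large subunit, was at most 1.10 scaled FPKM and was not tested.

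The second comparison asked whether fear conditioning changes these mRNAs on dendritic ribosomes. The family was divided: 24 of 44 genes had a higher mean in the fear conditioned dendrite immunoprecipitates, with a median log2 difference of 0.21, against 56.7% and 0.08 for all genes tested. No gene passed (0%; limma adjusted p 0.944 to 1.00 for the 44). At an unadjusted p under 0.05, 3 of the 44 were higher, against 1.95% of all genes, and 0 were lower, against 1.33%. With 2 libraries against 2, both fear conditioned values lay above both home cage values for 10 of the 44, against 24.5% of all genes, and below for 8, against 8.61%. In the single-end table these counts were 13 (20.5% of all genes) and 4 (6.8%), and as deposited 14 (29.8%) and 3 (4.71%).

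Rpl39 (chromosome X, 34622515 to 34625179, minus strand), a very small protein of the exit tunnel, was listed at 0 in both home cage dendrite immunoprecipitates and was 5.80 and 66.2 in the fear conditioned ones. Its log2 difference was 4.42 (SE 1.38, limma adjusted p = 0.944). The single-end runs also put both fear conditioned values (47.2 and 192) above both home cage values (0 and 6.31). Rpl21 was 1.58 and 4.804 in home cage and 24.6 and 74.5 in fear conditioned dendrite, a log2 difference of 3.51 (SE 1.58, limma adjusted p = 0.944). Its single-end values did not repeat this, at 0 and 1.56 against 0.506 and 1.29, and it has 15 named pseudogenes. Rpl35a was 0 and 4.7998 against 8.60 and 28.4, a log2 difference of 2.80 (SE 1.29, limma adjusted p = 0.944), while in the single-end runs 0 and 8.39 overlapped 24.5 and 7.10.

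The largest negative differences were Rpl32 (-2.95, SE 2.54) and Rpl38 (-2.21, SE 1.80), both without an unadjusted p under 0.05. Rpl32 rested on the value of 974 in home cage dendrite 1, and without that library its difference was 0.15. Rpl38 was 51.0 and 49.0 in home cage against 16.1 and 6.13 in fear conditioned dendrite, so the groups did not overlap. In the single-end runs they overlapped, at 155 and 16.1 against 59.2 and 11.9. Rpl10a was 3.43 and 12.9 in home cage and 16.1 and 16.6 in fear conditioned dendrite, a log2 difference of 1.14 (SE 1.51, limma adjusted p = 1.00).

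Other named genes did not pass in either direction. Rplp0, Rplp1 and Rplp2 had log2 differences of -0.86, -1.25 and -0.30 (SE 1.76, 1.48 and 1.79). Rpl3 had -1.19, Rpl4 -1.60, Rpl10 -1.48, Rpl11 -1.29, Rpl22 -0.60 and Rpl41 -1.99, while Rpl5 had 1.51 and Rpl8 0.46. The direction of the family as a whole was not stable. Its median was 0.95 as deposited and 1.30 with upper-quartile scaling, where the median of all genes was 0.47 and 0.65. It was -0.43 without fear conditioned dendrite 2.

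The third comparison put the same question to ribosomes from cell bodies. Here 11 of 44 genes had a higher mean in fear conditioned soma immunoprecipitates, with a median log2 difference of -0.91, while 61.9% of all genes tested were higher, with a median of 0.43. No gene passed (0%; limma adjusted p 0.569 to 1.00 for the 44). At an unadjusted p under 0.05, 2 of the 44 were lower, against 1.47% of all genes, and 0 were higher, against 5.94%. Both fear conditioned values lay below both home cage values for 16 of the 44, against 7.99% of all genes, and above for 3, against 33.4%. In the single-end table these counts were 14 (7.31% of all genes) and 1 (27.8%), and as deposited 4 (3.69%) and 14 (46.4%).

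Rpl27a (chromosome 7, 116662709 to 116665441, plus strand) was 27.5 and 15.8 in home cage and 0.844 and 0.881 in fear conditioned soma immunoprecipitates. The groups lay far apart, and the log2 difference was -3.55 (SE 1.44, limma adjusted p = 0.569). Its single-end values kept that order, at 25.7 and 41.0 against 9.12 and 1.88. Rpl8 was 29.3 and 13.4 in home cage and 1.26 and 1.94 in fear conditioned soma, a log2 difference of -3.02 (SE 1.29, limma adjusted p = 0.569), and 9.10 and 8.13 against 6.00 and 1.16 in the single-end runs. Rpl14 had -3.01 (SE 1.80) without an unadjusted p under 0.05. It rested on a single value, 114 in home cage soma 2, and without that library its difference was 0.06.

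Positive differences were given by Rpl21 (2.60, SE 1.58), Rpl36a (1.48, SE 1.16) and Rpl35a (0.90, SE 1.29), none with an unadjusted p under 0.05. Rpl21 was 0.147 and 6.95 in home cage and 14.96 and 19.9 in fear conditioned soma. Its single-end values did not repeat this, at 0 and 0 against 0 and 0.709. Both home cage values of Rpl36a were 0, and it was 6.33 and 0.0687 in the fear conditioned ones, so 1 library carried it. Rpl10a was 16.8 and 24.6 in home cage and 3.48 and 11.1 in fear conditioned soma, a log2 difference of -1.53 (SE 1.51, limma adjusted p = 0.680). Among the stalk genes Rplp1 had -2.93 (SE 1.48, limma adjusted p = 0.569), with 28.6 and 49.0 against 4.15 and 3.97, while Rplp0 had -1.02 and Rplp2 0.50.

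The sign of the family's median in soma turned on scaling and on 1 library. As deposited, the median was 0.34, with 1.21 for all genes. With upper-quartile scaling it was -0.35, with 0.83 for all genes. Without home cage soma 2, the library with 74.0% of its paired-end FPKM in Rpsa, the median was 0.16, with 0.68 for all genes. Without home cage soma 1 it was -1.61, with 0.86 for all genes. In each of these 4 settings the family's median lay below that of all genes, and the single-end table had -0.82 against 0.34. Among all genes tested, 0 passed here with all libraries, 102 without home cage soma 2, 135 without fear conditioned soma 1 and 121 without fear conditioned soma 2, and 0 of the large-subunit genes passed in any of these.

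Small-subunit genes gave similar values in soma: 7 of 30 were higher after fear conditioning, with a median of -1.10. Rpsa had -4.92 (SE 1.38, limma adjusted p = 0.569), with 1672 and 80307 scaled FPKM in home cage against 723 and 200 in fear conditioned soma. The value of 80307 is from the paired-end run of home cage soma 2, whose single-end run had 1.57% of its FPKM in Rpsa. Rps6 had 2.85 (SE 1.44). Eef2 had -3.88 (SE 1.32, limma adjusted p = 0.569). In dendrite 20 of the 30 small-subunit genes were higher after fear conditioning, with a median of 0.57. Pyramidal neuron markers were higher in fear conditioned soma for 6 of the 6 tested, with a median of 1.42, and their part in the difference was not tested.

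**Figure D4:**
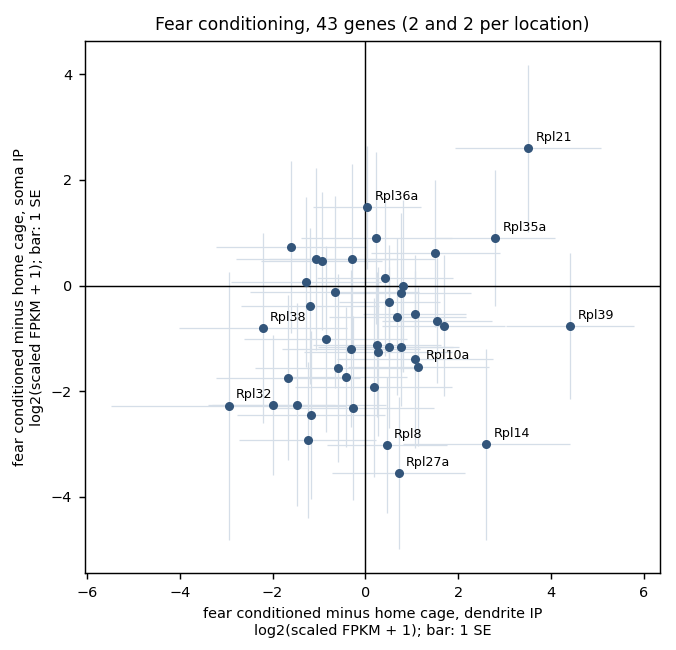
Fear conditioned minus home cage difference of log2(scaled FPKM + 1) for 43 of the genes tested, in dendrite (horizontal) and soma (vertical) immunoprecipitates, with bars of 1 SE; named genes are those given in the text. Points spread to both sides along the horizontal axis (24 of 43 above 0) and lie mostly below 0 on the vertical axis (11 of 43 above 0).

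The difference between the locations in the response to fear conditioning was tested as an interaction. The dendrite difference exceeded the soma difference for 33 of 44 genes, with a median of 0.91, against 42.3% of all genes and a median of -0.57. The median was 0.47 without home cage soma 2 (25 of 43 genes) and 1.77 without home cage soma 1, and it was 0.47 as deposited, with -0.90 for all genes. No gene passed (0%; limma adjusted p 0.716 to 0.994 for the 44). At an unadjusted p under 0.05, 2 of the 44 were positive, against 0.956% of all genes, and 0 were negative, against 2.53%. The 2 were Rpl14 (5.61, SE 2.55) and Rpl39 (5.19, SE 1.95), each with a limma adjusted p of 0.716. Rpl27a followed at 4.27 (SE 2.03). Rpl14 was 0 and 2.48 in home cage against 10.3 and 10.4 in fear conditioned dendrite, and its soma side rested on home cage soma 2 as described above.

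The largest negative interactions, without an unadjusted p under 0.05, were Rpl4 (-2.33, SE 2.30), Rpl31 (-1.57, SE 2.45) and Rpl36a (-1.44, SE 1.65). Rpl10a had 2.68 (SE 2.14, limma adjusted p = 0.716), with both fear conditioned values above both home cage values in dendrite and below them in soma. In its single-end runs dendrite kept this order (73.6 and 19.5 against 6.86 and 13.4), while soma did not (3.15 and 42.8 against 13.9 and 179). Rpl37 had the same order as Rpl10a in the paired-end runs of both locations, with an interaction of 2.45 (SE 1.89). The 2 behaviour differences share no library, but all 8 libraries share the scaling.

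**Figure D5:**
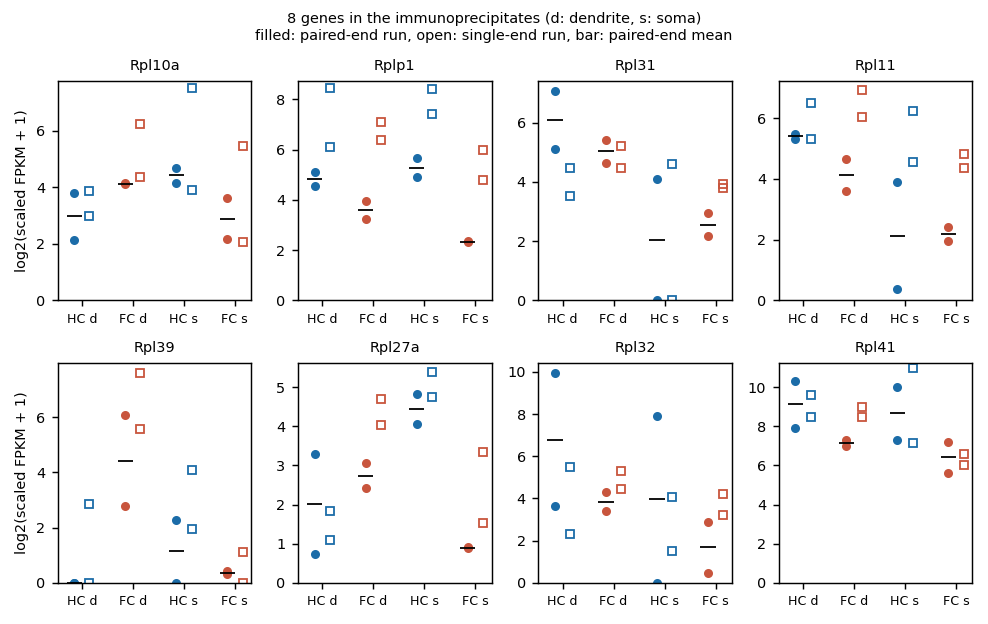
log2(scaled FPKM + 1) of 8 genes in the home cage (HC, blue) and fear conditioned (FC, red) immunoprecipitates of dendrite (d) and soma (s); filled circles are paired-end runs with their mean as a bar, open squares single-end runs. The paired-end Rpl31 points are higher in dendrite while its single-end points and both kinds for Rpl11 overlap soma, Rpl39 is at 0 in paired-end home cage dendrite, Rpl27a is low in fear conditioned soma, and Rpl32 spans 9.57 to 974 scaled FPKM in dendrite.

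The last comparisons set the immunoprecipitates against the unbound RNA. In dendrite, 34 of 43 tested large-subunit genes had a higher mean in the immunoprecipitates, with a median log2 difference of 0.68, against 43.2% and -0.11 for all 2938 genes tested. None of the 43 passed (limma adjusted p = 1.00), and 0 of them had an unadjusted p under 0.05, against 0.987% of all genes that were higher and 3.37% that were lower. Of all genes 2 passed (0.0681%), both lower in the immunoprecipitates: Gm3168 and a transcript listed under a database number, named here after their values were seen. Without the home cage dendrite supernatant 0 passed, and 1 passed without any single dendrite immunoprecipitate, either fear conditioned soma immunoprecipitate or the fear conditioned dendrite supernatant. The values below are scaled over 11 libraries, and the 2 supernatants are home cage 2 and fear conditioned 2. All 4 dendrite immunoprecipitates lay above both supernatants for 8 of the 43 genes (Rpl4, Rpl7, Rpl11, Rpl23, Rpl31, Rpl32, Rplp0 and Rplp1), against 4.39% of all genes, and below both for 2 (Rpl29 and Rpl30), against 18%.

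Rpl4 was 538, 142, 51.6 and 158 in dendrite immunoprecipitates and 18.1 and 20.9 in the supernatants. All 4 immunoprecipitates were above both supernatants, and the log2 difference was 2.96 (SE 1.41). Rpl7 was 103, 20.2, 8.82 and 21.2 against 4.68 and 3.30, again without overlap, with a log2 difference of 2.42 (SE 1.23). Rpl32 had the largest difference, 3.99 (SE 2.05), with 1105, 10.5, 9.97 and 18.3 against 1.56 and 1.55, and it too did not overlap. On the other side Rpl30 had -1.62 (SE 1.05), with 0, 0.909, 3.28 and 3.05 against 6.73 and 6.01, followed by Rpl29 (-0.95, SE 1.41) and Rpl26 (-0.93, SE 1.10). Rpl26 was 15.6, 5.56, 3.61 and 5.33 against 12.8 and 13.8, and in soma 1.20, 2.18, 2.88 and 1.24 against 11.3.

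The soma had a single supernatant, fear conditioned 2, so its test assumes that this library varies like the other groups. There 35 of 43 genes had a higher mean in the immunoprecipitates, with a median of 0.55, against 57.1% and 0.18 for all genes. The median was 0.29 with upper-quartile scaling and 1.13 in the single-end table, where all genes had -0.03 and -0.05. It was 0.87 without fear conditioned soma immunoprecipitate 1 and 0.93 without 2. Without home cage soma 2 it was 0.53 and the count was 26 of 43. The share of all genes in that setting is not given here, so that count has no background beside it. No gene passed (0%; limma adjusted p = 1.00 for the 43), and 0 of the 43 had an unadjusted p under 0.05, against 0.136% of all genes that were higher and 0.817% that were lower. The largest differences were Rpl36 (3.30, SE 1.77), Rpl19 (2.66, SE 1.76) and Rpl27 (2.51, SE 1.81). The largest negative ones were Rpl26 (-2.28, SE 1.48), Rpl31 (-2.19, SE 1.89) and Rpl35a (-1.31, SE 1.54). In the single-end table Rpl26 was 1.00 and Rpl31 1.36 in soma, and Rpl26 was 1.17 in dendrite. Rpl31 was 0, 20.5, 6.05 and 2.87 in soma immunoprecipitates and 19.7 in the supernatant.

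Rpl10a was 3.89, 11.7, 16.8 and 16.4 in dendrite immunoprecipitates against 5.30 and 5.01 in the supernatants, and 19.8, 31.1, 3.16 and 9.07 in soma immunoprecipitates against 2.62. It was above the supernatants in 3 of 4 dendrite and 4 of 4 soma libraries, with log2 differences of 0.94 (SE 1.27) and 1.66 (SE 1.70). Of the stalk genes, Rplp0 was 79.2, 1.98, 7.92 and 6.91 against 1.71 and 1.18 in dendrite, without overlap, and Rplp1 was 25.6, 30.7, 8.66 and 14.6 against 8.45 and 3.09, also without overlap. Rplp2 was 12.9, 2.67, 2.62 and 8.11 against 1.31 and 4.96, with overlap. Their log2 differences were 2.23 (SE 1.37), 1.60 (SE 1.22) and 0.79 (SE 1.41). In dendrite 24 of 30 small-subunit genes and 6 of 7 elongation factors had a higher mean in the immunoprecipitates, while 0 of 9 tested astrocyte and 0 of 6 tested oligodendrocyte markers did. Of 6 tested pyramidal neuron markers 4 did, with a median log2 difference of 0.02. The median of the large-subunit genes in dendrite was 0.08 with upper-quartile scaling, where all genes had -0.49, and 1.07 in the single-end table, where all genes had -0.40. It was 0.12 without the home cage dendrite supernatant and 1.11 without the fear conditioned one. The medians of all genes without either supernatant are not given here.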

How the data were processed

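Per the labels' protocols, RNA was amplified (Nugen Ovation V2) before TruSeq DNA libraries were made; no molecular identifiers are mentioned. Tools named in the submitters' processing notes are CASAVA 1.9, STAR 2.1.1d, Cufflinks 2.0.2 and build mm9. The authors deposited FPKM per gene, in a paired-end and a single-end table with a column per library and transcript part, per the file headers; the CDS+ columns were used. FPKM keep no counts, so no counting interval was computed. Depth was estimated from genes with 1 model of at least 1500 bases, whose low values should be multiples of 1 fragment. The depth kept for each run was the candidate that scored best on the share of low values within 0.15 of a whole number. That share, 89.5 to 97.4%, is therefore no independent check of the depth. The rule for that spacing was set after values were seen.

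FPKM were divided by median-ratio factors, from 870 genes above 0 in all 8 immunoprecipitates or 765 above 0 in all 11 libraries. The test ran on log2(scaled FPKM + 1), a pseudocount of 1, for genes whose scaled FPKM averaged 1 or more, with limma 3.58.1 in R 4.3.3 (trended empirical Bayes, Benjamini-Hochberg adjustment over all genes tested, threshold 0.05, two-sided). The 8 immunoprecipitates were fitted in 4 groups with 4 residual degrees of freedom, while the fit of 11 libraries had terms for location, fraction, their interaction and behaviour, with 6. The script was tested on simulated data. The members, lists and tests were chosen with earlier results of these data known, and alternatives are given in the closing section. Named genes are 12 fixed ones (Rpl10a, Rplp0, Rplp1, Rplp2, Rpl10, Rpl3, Rpl4, Rpl5, Rpl11, Rpl22, Rpl38, Rpl41), the 8 highest and 4 lowest by mean, and per comparison and direction up to 5 with an unadjusted p under 0.05, or else the 3 largest. Others, such as Rpl26 and Rpl7a, were named after their values were seen. RefSeq start sites were matched by symbol. Single-gene results of 2 genes are not reported here; both stayed in the fits, and the member among them in counts and sums.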

Additional observations from a re-analysis of the deposited data

Results flagged for a closer look

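In 10 of 66 sets of 4 libraries (a gene or summary in dendrite or in soma immunoprecipitates), 1 library lay farther from the other 3 than Dixon's 95% limit allows. For a set chosen without regard to its values, chance gives about 1 in 20. Many of these genes were named for high means or large differences in the same libraries, and the sets share libraries. The count can therefore not be set against that rate. Values of single genes are scaled FPKM over the 8 immunoprecipitates, but the limit was applied to their log2(scaled FPKM + 1). Sums and shares are of FPKM as deposited, and the limit was applied to them without a log. Home cage dendrite 1 stood high for Rpl32 (974.5, others 9.57 to 18.4), for the summed FPKM of the 46 genes (4741, others 1308 to 1754) and for their share of all FPKM (13.02%, others 3.00 to 3.82%). It stood low for Rpl10a (3.43, others 12.9 to 16.6) and Rpl19 (4.638, others 17.8 to 22.2). Its single-end run gave Rpl32 an FPKM of 33.9 and Rpl19 one of 66.3.

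Home cage soma 2 stood high for Rpl14 (114.1, others 0.572 to 0.902) and Rpl29 (49.16, others 1.06 to 2.096). Home cage soma 1 stood high for Rpl10 (254.1, others 14.8 to 22.9). Rpl34 in fear conditioned soma 2 (0.1907) and Rpl36a in fear conditioned soma 1 (6.33, others 0 to 0.0687) are low genes with 1 high soma library; in the single-end run of that library Rpl36a had an FPKM of 83.3.

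For Rpl10a the fear conditioning difference was positive in dendrite and negative in soma, with no overlap between behaviours in either; the difference between them was 2.676 on the log2 scale and did not pass its test (limma adjusted p = 0.716).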

How the results depend on the processing

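Tested alternatives were other pseudocounts (0.1 and 5), another minimum level (none, or 5), no scaling, upper-quartile scaling, the single-end table, robust moderation, the replicate number as a block, and leaving out each library; leaving out home cage dendrite 1 and home cage soma 2 together was chosen after the data were seen. No large-subunit gene passed in any comparison under any of them. Of the 41 differences of named genes 28 kept their sign wherever the gene was tested (753 values, 23 reversed, counting a difference of 0.00 as reversed). Rpl21 was too low to be tested in the single-end table. The labels do not say whether libraries with the same replicate number share mice or a batch. Deviations of same-numbered libraries correlated at -0.000976 (home cage) and 0.0562 (fear conditioned). With 2 libraries for each behaviour in each location, these correlations cannot decide it.

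With the replicate block, 1 gene instead of 2 passed between dendrite immunoprecipitate and supernatant, and Rpl29 there was 0.0102; it changed no other call, and medians under the block were 0.67 (dendrite against soma), 0.91 (interaction), 1.07 and 0.97 (immunoprecipitate against supernatant in dendrite and soma). The block joins behaviour and number, so behaviours within a location had no such fit. Genes passing numbered 1 between dendrite and soma as deposited, with upper-quartile scaling and in the single-end table. They numbered 1 between fear conditioned and home cage soma as deposited, and 0 to 135 when a library was left out: 102 without home cage soma 2, 135 without fear conditioned soma 1 and 121 without fear conditioned soma 2. Between dendrite immunoprecipitate and supernatant there were 1 with either pseudocount or a minimum of 5, 376 with no minimum, 10 in the single-end table, 0 without home cage dendrite 1 and home cage soma 2, and 0 to 2 when a library was left out. For soma immunoprecipitate and supernatant they were 1 with the pseudocount of 0.1 or a minimum of 5, 935 with no minimum and 10 in the single-end table.

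The median difference of the family between dendrite and soma moved to 1.53 as deposited and 1.45 without the 2 libraries together, and ranged from 0.24 to 1.25 when a library was left out. For fear conditioning in dendrite it was 0.95 as deposited, 1.30 with upper-quartile scaling and -0.43 to 0.26 when a library was left out. In soma it was 0.34 as deposited, 0.0696 without the 2 libraries and -1.61 to 0.16 when a library was left out. The interaction ranged from 0.47 to 1.77. Mean shares of all FPKM were 3.59% in soma immunoprecipitates without Rpsa in the total, and without the 10 highest other rows 4.53% there and 3.59% in dendrite supernatants.

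Reversed between dendrite and soma were Rpl36 (1.37, single-end), Rpl19 (0.12 as deposited, 0.99 single-end) and Rpl10a (0.83 as deposited, 0.31 upper-quartile, -0.46 to 0.38 when a library was left out, among them 0.07 and 0.27, and 0.66 without the 2 libraries). For fear conditioning in dendrite it was Rpl32 (0.95 single-end, 0.21 without the 2 libraries, -6.05 to 0.15 when a library was left out). In soma they were Rpl14 (1.34 single-end, 0.0214 without the 2 libraries, -6.13 to 0.0628 when a library was left out) and Rpl10a (0.22 as deposited). Rpl35a was counted with them, but it was listed at 0 in every single-end soma immunoprecipitate, so its 0.00 there has no direction. In the interaction they were Rpl31 (-3.82 to 0.49 when a library was left out) and Rpl36a (2.05, single-end). Against the supernatants they were, in the single-end table, Rpl26 (1.17 in dendrite, 1.00 in soma) and Rpl31 (1.36 in soma). The cause was not tested. FPKM keep no counts, so the depth behind a low value is unknown.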
